A study of Mus musculus with 4 samples.

Results

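Aldo-keto reductases are cytosolic enzymes that use NADPH, and in some members NADH, to reduce aldehydes and ketones to alcohols. The 8 genes described here were Akr1b3, Akr1b7, Akr1b8, Akr1a4, Akr1c12, Akr1c13, Akr1c14 and Akr1c19, found on the array through the gene symbol of each probe, older or newer synonyms included. They were chosen with the difference between tumour sizes in view, so their values in that comparison are a description and carry no test. The genes had 11 probes of the 45281 on the array, and 8 genes of the 28896 named there. Of the 8 genes, 7 had a probe that passed the filter on dim probes (8 of the 11 probes), which kept probes whose detection p was below 0.05 on 2 or more arrays. Akr1c13 did not pass. Akr1a4 is called Akr1a1 in current annotation.

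The arrays compared large tumours (4 to 5 mm in diameter) with small tumours (at most 2 mm) of the intestine in ApcMin/+ mice of the C57BL/6J strain, 30 weeks old. The labels do not name the gut segment. ApcMin/+ mice are heterozygous for a truncated Apc, a brake on Wnt signalling, and grow many intestinal adenomas, so every pool was tumour tissue on this genotype and none was normal mucosa. Each pool held 3 tumours, joined before RNA was extracted, and each of 2 mice gave 1 large and 1 small pool, for 4 Illumina bead arrays with 1 array per pool. Between 18969 and 19990 probes were detected per array, and the small pool of mouse 2 correlated least with the others across genes (r of 0.94 to 0.95), genes not being independent replicates. Of 8 epithelial marker genes, all 8 passed the filter, among them Cdx2, a transcription factor of intestinal epithelium, at a normalized log2 intensity of 10.75 and 10.68 in large and 10.93 and 10.96 in small pools (mouse 1 and mouse 2 in each size). The probe of Epcam, a surface protein of epithelial cells, was close to background. In whole tumours, fewer cells of a type and less RNA per cell cannot be told apart.

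In the intestine, aldo-keto reductases clear aldehydes from food, lipid peroxidation and sugars, and several interconvert steroids. The Akr1b branch holds aldose reductase (Akr1b3), which turns glucose into sorbitol in the polyol pathway, and its relatives Akr1b7 and Akr1b8. Akr1b7 was first known from the mouse vas deferens and the adrenal cortex, where it reduces the aldehyde released when the side chain of cholesterol is cut, and it also acts as a prostaglandin F synthase. In mouse intestine its gene is a known target of the sterol and bile acid receptors LXR and FXR. The Akr1c branch holds hydroxysteroid dehydrogenases, and Akr1a4 encodes aldehyde reductase, which in mice also serves ascorbate synthesis.

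The genes lie in clusters: on chromosome 6 the order is Akr1b3, Akr1b8, Akr1b10 and Akr1b7, and on chromosome 13 it is Akr1c14, Akr1c18, Akr1c13, Akr1c19, Akr1c12, Akr1c6, Akr1c20, Akr1c21 and Akr1e1, with pseudogenes and noncoding genes between some of them. RefSeq promoters (build GRCm38.p6) were at hand for 7 of the 8 members, all but Akr1b3. The 250 bases before the transcript start of that table are shown for 4 of them, 5′ to 3′ on the strand of the gene: Akr1b7 (chr6:34412112-34412361, plus strand), the member with the largest difference between tumour sizes; Akr1b8 (chr6:34353896-34354145, plus strand), from the same cluster; and the near-identical pair Akr1c12 (chr13:4279400-4279649, minus strand) and Akr1c13 (chr13:4190937-4191186, plus strand). For 3 members the start in the table lies inside the annotated gene, so that 19 of the 250 bases for Akr1c13, 237 for Akr1c19 and all 250 for Akr1c14 fall within it. Capitals mark the motifs found.
Akr1b7: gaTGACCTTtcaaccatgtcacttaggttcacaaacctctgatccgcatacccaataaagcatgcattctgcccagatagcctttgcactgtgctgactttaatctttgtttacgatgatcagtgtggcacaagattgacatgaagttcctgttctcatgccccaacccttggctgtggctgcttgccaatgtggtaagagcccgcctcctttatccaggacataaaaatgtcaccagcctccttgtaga
Akr1b8: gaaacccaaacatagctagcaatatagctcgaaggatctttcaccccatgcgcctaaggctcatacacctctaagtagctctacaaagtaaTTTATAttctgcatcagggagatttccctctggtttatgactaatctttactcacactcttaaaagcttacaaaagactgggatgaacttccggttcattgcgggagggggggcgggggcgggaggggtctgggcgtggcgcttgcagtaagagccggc
Akr1c12: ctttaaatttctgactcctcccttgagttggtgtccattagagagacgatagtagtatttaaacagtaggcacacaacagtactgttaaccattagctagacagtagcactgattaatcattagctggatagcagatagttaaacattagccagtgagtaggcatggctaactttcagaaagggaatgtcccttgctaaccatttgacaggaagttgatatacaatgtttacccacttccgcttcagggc
Akr1c13: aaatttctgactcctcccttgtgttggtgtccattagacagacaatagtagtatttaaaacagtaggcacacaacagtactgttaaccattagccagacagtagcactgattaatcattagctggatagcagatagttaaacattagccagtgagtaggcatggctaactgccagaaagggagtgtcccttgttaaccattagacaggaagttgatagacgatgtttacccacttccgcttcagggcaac

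The windows were searched on both strands for the box motif TATAAA, which lies before the start of many genes, AAGGTCA (half-site of the NR5A receptors LRH-1 and SF-1), TGACNNNGC (core of the antioxidant response element bound by NRF2) and CTTTGAT (TCF/LEF, the factors of Wnt signalling). AAGGTCA was found in 1 of the 7 member genes, Akr1b7, on the minus strand 248 to 242 bases before the start, and in 4.08% of 32851 mouse promoter windows of the same length. TATAAA was found in 1 of the 7, Akr1b8, on the minus strand 159 to 154 bases before the start, and in 12.4% of all windows. The other motifs, present in 10.2% (TGACNNNGC) and 3.21% (CTTTGAT) of all windows, had no match in the 7, and no motif overlapped another. These are matches of letters and not binding sites. The Akr1b7 window was 49.5% identical to that of Akr1b8, against a median of 49.3% with 32836 promoters of other genes; it lay close to that median. The Akr1c12 and Akr1c13 windows were 92.5% identical.

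Akr1b7 had the largest difference of the 8 genes: its signal in large tumours was 0.242 times that in small ones. Before normalization the bead signal was 208.5 ± 7.91 (SE over 26 beads) in the large pool of mouse 1 and 247.6 ± 19.7 (SE over 37 beads) in that of mouse 2, against 673.6 ± 31.0 (34 beads) and 1112 ± 34.3 (41 beads) in the small pools. The normalized log2 intensity was 7.46 and 7.74 in large pools, against 9.40 and 9.90 in small pools of mouse 1 and mouse 2. Both large pools lay below both small pools, with no overlap, which held in the lower direction for 17.6% of all 13902 tested genes. Large minus small, the log2 difference came to -1.94 for mouse 1 and -2.15 for mouse 2, with a mean of -2.05 ± 0.15 (SD, n = 2 mice). Ordered by that mean, Akr1b7 was 7th from the lowest of the tested genes, and it was 3rd by the smaller of its differences in the 2 mice. At least 2-fold lower in both mice were 0.798% of all genes, and of the members Akr1b7 was the only one.

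**Figure D1:**
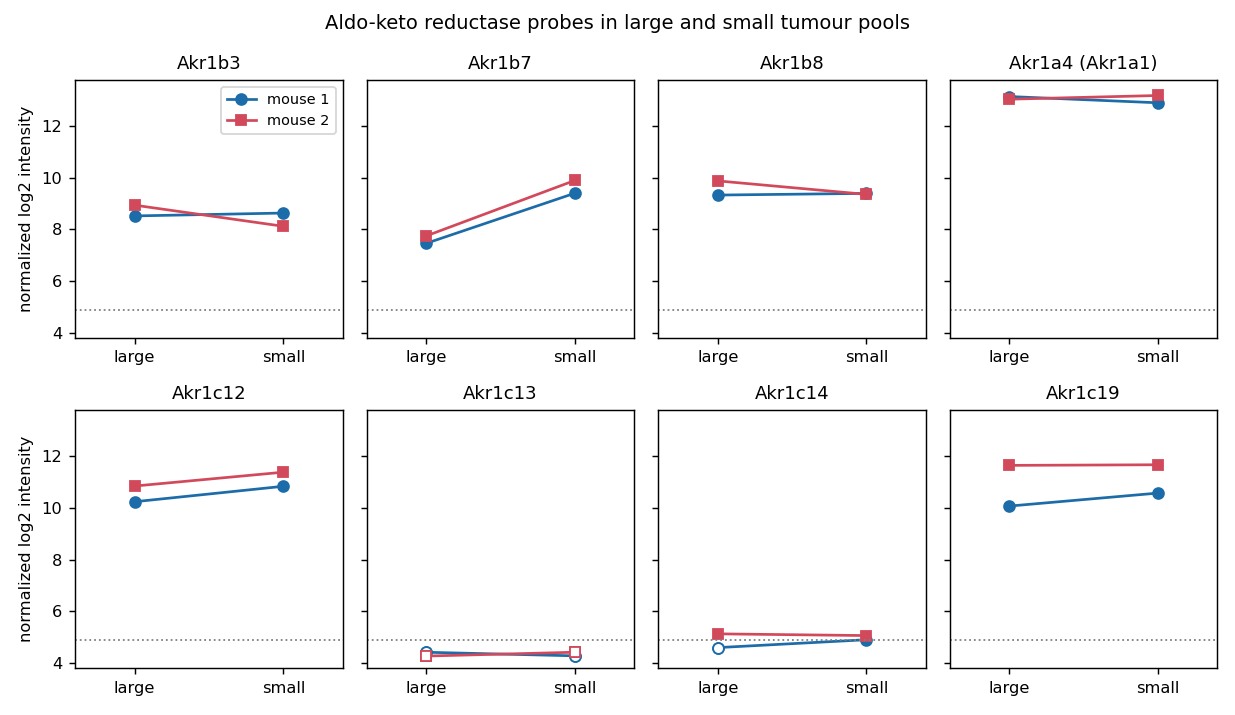
Normalized log2 intensity of the 8 genes in large (left) and small (right) pools, 1 point per array, with lines joining the pools of a mouse. Open symbols were not detected and the dotted line is the highest of the lowest detected values of the arrays. Akr1b7 is the gene whose lines climb steeply from large to small pools in both mice, and Akr1c13 lies below the line on all 4 arrays.

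The neighbours of Akr1b7 in the chromosome 6 cluster had smaller differences, none of them lower in large tumours in both mice. Akr1b8, a reductase of lipid aldehydes and retinal, had normalized log2 intensities of 9.33 and 9.88 in large pools and 9.39 and 9.36 in small pools. It differed by -0.07 (mouse 1) and 0.52 (mouse 2), and the pool that stood apart was the large pool of mouse 2. Akr1b3 had 8.52 and 8.94 in large pools and 8.63 and 8.12 in small pools, a difference of -0.11 (mouse 1) and 0.82 (mouse 2). Its lowest value was in the small pool of mouse 2, and a second Akr1b3 probe was not detected on any array. Akr1b10, in the same cluster and no member, had 9.13 and 9.01 in large pools and 8.76 and 8.57 in small pools. The sizes differed by 0.38 (mouse 1) and 0.44 (mouse 2) on the log2 scale, and a second, dimmer probe gave 0.35 and 0.51. It did not pass limma over all 20214 tested probes (adjusted p = 0.725, or 0.720 when the mouse was a block).

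In the Akr1c cluster, Akr1c12 was lower in both mice by a similar amount. The normalized log2 intensity of this hydroxysteroid dehydrogenase gene was 10.24 and 10.85 in large pools, against 10.84 and 11.39 in small pools. The groups overlapped slightly, since the large pool of mouse 2 (10.85) lay just above the small pool of mouse 1 (10.84). Within a mouse the difference was -0.60 in mouse 1 and -0.54 in mouse 2. Its mean was -0.57 ± 0.04 (SD, n = 2 mice), a signal in large tumours 0.675 times that in small ones. The array lists the Akr1c12 and Akr1c13 probes under the same search key, and the genes are close copies. With no probe sequence in the files, it was not tested which of them the Akr1c12 probe binds. The Akr1c13 probe was not well above background on any array, with bead signals of 54.9 and 45.6 in large and 45.7 and 55.9 in small pools, so no difference is given.

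Akr1c19, which lies between Akr1c13 and Akr1c12, had normalized log2 intensities of 10.07 and 11.65 in large pools, against 10.58 and 11.67 in small pools. Between sizes it differed by -0.50 (mouse 1) and -0.02 (mouse 2), with the values grouped by mouse and not by size. Akr1c14, a 3-alpha-hydroxysteroid dehydrogenase gene, was close to background: its bead signals were 60.5 and 70.9 in large and 65.5 and 74.2 in small pools. It was detected on 3 of the 4 arrays, all but the large pool of mouse 1, so the difference in mouse 1 is a bound of -0.11, and in mouse 2 it was 0.07. A second Akr1c14 probe was not detected on any array.

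Akr1a4 gave bright signals on every array and did not separate the sizes. The brighter of its probes had a normalized log2 intensity of 13.15 and 13.05 in large pools and 12.91 and 13.19 in small pools, a difference of 0.24 (mouse 1) and -0.14 (mouse 2). The second probe differed by 0.06 and 0.29, so the probes disagree in sign in mouse 2.

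Of the 7 members tested, 3 were lower in both mice (Akr1b7, Akr1c12 and Akr1c19), 0 were higher in both and 4 went opposite ways. Of all tested genes, 26.7% were lower in both animals and 30.7% higher. The members had a median log2 difference of -0.31 (mouse 1) and -0.02 (mouse 2), against 0.03 and 0.01 over all tested genes. Members were chosen on this comparison, so nothing is read from these counts.

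**Figure D2:**
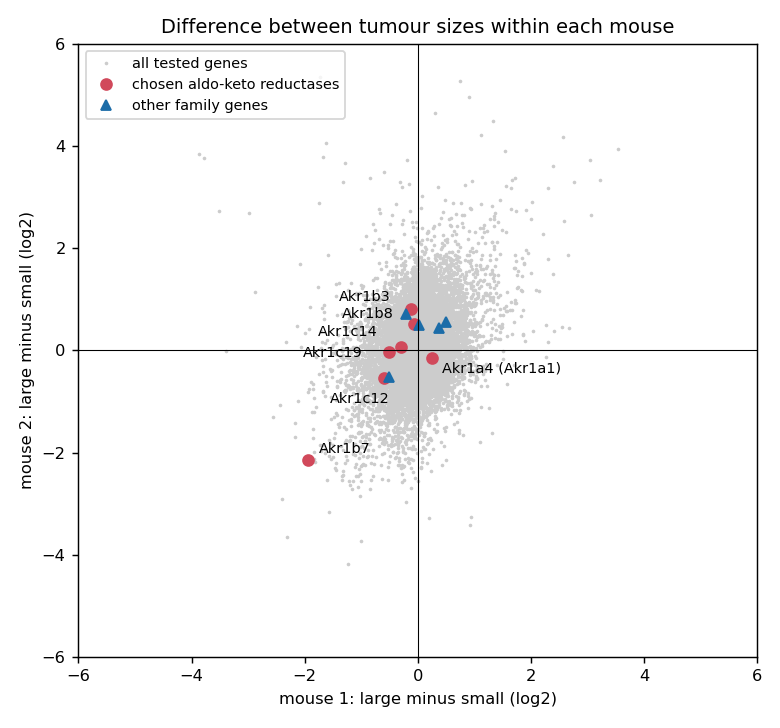
Log2 difference of large minus small tumours in mouse 1 (horizontal) and mouse 2 (vertical) for the 13902 tested genes (grey), the 7 chosen aldo-keto reductases that were tested (red circles) and 5 other genes of the family (blue triangles). Akr1b7, at -1.94 and -2.15, lies apart from the other members, which are within 1 log2 unit of 0 in both mice.

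The rest of the family was taken from a list of 12 genes, all with probes on the array, of which 5 passed the filter. Of these, 3 were higher in both mice (Akr1b10, Akr7a5 and Kcnab1), 1 was lower in both (Kcnab2) and 1 went opposite ways (Akr1e1). None of the 5 passed limma with or without the mouse as a block, and 0 had an unadjusted p under 0.05 in either fit. Of all probes, 0% passed without the block and 0.594% with it. Akr7a5, a reductase of aflatoxin aldehyde and succinic semialdehyde, differed by 0.02 (mouse 1) and 0.50 (mouse 2), and its other probes gave -0.04 and 0.26, and -0.15 and 0.94. Kcnab1 and Kcnab2 encode beta subunits of potassium channels with an aldo-keto reductase fold. Kcnab2 differed by -0.50 and -0.52, and Kcnab1 by 0.51 (mouse 1) and at least 0.54 (mouse 2, where the small pool was not detected). The Kcnab1 probe was close to background, with bead signals of 80.9 and 76.5 in large and 65.9 and 67.9 in small pools. Other Kcnab1 probes were detected on 1, 0 and 0 of the 4 arrays and were not tested. Akr1e1, a reductase of anhydrofructose, differed by -0.21 and 0.72. Genes known from steroid tissues or liver were not tested because they did not pass the filter: Akr1c18, which inactivates progesterone, Akr1c6, Akr1c20, Akr1c21, and Akr1d1, the 5-beta-reductase of bile acid synthesis. Akr1cl and Kcnab3 did not pass either.

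The comparison of the mice with each other played no part in the choice of the genes. The values of Akr1c19 were separated by animal: the log2 difference, mouse 2 minus mouse 1, was 1.58 in large and 1.10 in small pools, a mean of 1.34 ± 0.31 (SE from limma, n = 2 pools per mouse) and 2.53 times the signal of mouse 1. It did not pass limma over all probes (adjusted p = 0.650 without and 0.113 with tumour size as a block, higher in 2 of 2 sizes, unadjusted p = 0.00476 and 0.00153). Akr1c12 lay 0.61 higher in mouse 2 in large and 0.55 higher in small pools, and it did not pass (limma adjusted p = 0.984 and 0.769). Akr1b7 was 0.29 and 0.50 higher in mouse 2, which did not pass (limma adjusted p = 0.990 and 0.895). Akr1c14 was at least 0.34 higher in large pools, where that of mouse 1 was not detected, and 0.16 higher in small pools, and Akr1b3, Akr1b8 and Akr1a4 went opposite ways at the 2 sizes. No member passed with either fit, against 0% of all probes without and 0.767% with tumour size as a block (155 of 20214), or 0.406% counting those higher in mouse 2. Both pools of mouse 2 lay above both pools of mouse 1 for 3 of the 7 tested members (Akr1c19, Akr1c12 and Akr1c14, the last with 1 undetected pool), and for 18.3% of all genes. These tests compare pools of 2 animals, with 1 pool of each size per animal, and do not measure the spread among mice.

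**Figure D3:**
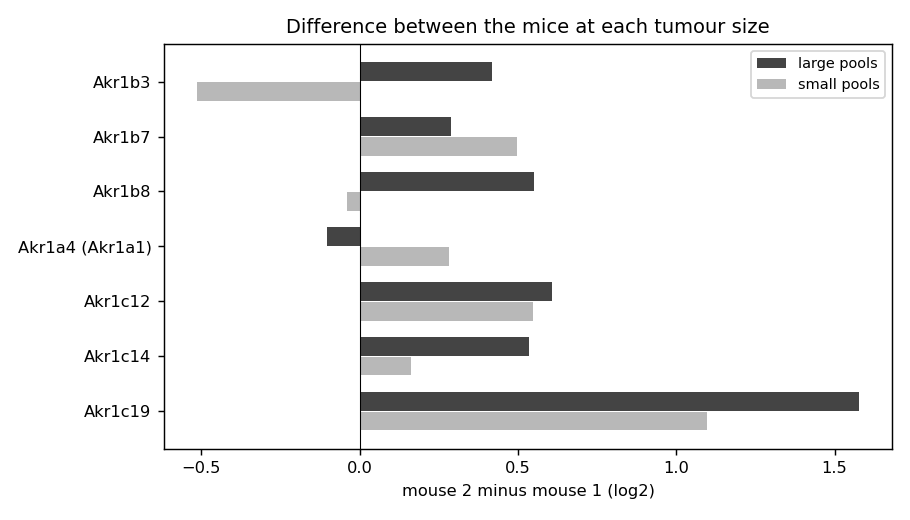
Log2 difference of mouse 2 minus mouse 1 in large pools (dark bars) and small pools (light bars) for the 7 tested members. Akr1c19 has the longest bars, 1.58 and 1.10, and Akr1b3, Akr1b8 and Akr1a4 have bars of opposite sign. The dark bar of Akr1c14 is the normalized value against an undetected pool of mouse 1.

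Markers of gut position and cell type moved between the mice as well, and their part in the Akr1c19 difference was not tested. Over all 13902 tested genes, mouse 2 minus mouse 1 had a median log2 difference of 0.01. With tumour size as a block 125 of them passed limma, 66 higher and 59 lower, and 0 without it. Of 23 enterocyte genes tested, the median difference was 1.05, and 9 higher and 1 lower passed limma with that block and 0 without it. The lower one was Mep1a, a brush border protease (-2.29, limma adjusted p = 0.00406 with the size block, lower in 2 of 2 sizes), named after its values were seen. The apolipoprotein gene Apoa4 lay 3.25 higher in mouse 2 (limma adjusted p = 0.000297 with the size block, higher in 2 of 2 sizes). Fgf15, the ileal hormone gene that bile acids induce, had a difference of -3.39 (limma adjusted p = 0.00279 with the size block) and was not detected in either pool of mouse 2, so its size depends on the background. The fibroblast list had a median of -1.10 over 8 genes, of which 2 passed with the size block and 0 without it.

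Genes of the surrounding metabolism came from 8 lists: carbonyl reductases, aldehyde dehydrogenases, other aldehyde clearance, polyol and fructose, NADPH supply, NRF2 targets, steroid and sterol genes, and prostaglandin genes. Together they had 78 tested genes, 29 lower and 16 higher in large tumours in both mice and 33 going opposite ways. That is 37.2% lower and 20.5% higher, against 26.7% and 30.7% of all tested genes. None of the 78 passed limma in either fit. At an unadjusted p under 0.05 there were 8 without and 17 with it. Over all 13902 genes the same counts were 1005 and 1475.

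Among enzymes that share substrates with the family, aldehyde dehydrogenases were lower in both mice in 8 of 15 and higher in 3. Aldh1a1, the cytosolic retinal dehydrogenase, differed by -0.67 (mouse 1) and -1.14 (mouse 2), and the mitochondrial Aldh2, the brightest of the list, by 0.09 and 0.11. Aldh3a1 differed by -0.26 in mouse 1 and by at least 2.23 in mouse 2, where the small pool was not detected. Of 8 carbonyl reductase genes 1 was lower and 2 were higher in both mice. Dhrs9, a retinol and steroid dehydrogenase, was the most lowered (-0.93, and a bound of -0.38 in mouse 2, where the large pool was not detected), and Dcxr, the xylulose reductase, the most raised (0.08 and 1.70), with its difference almost wholly in mouse 2. Dhrs1, the brightest of the list, differed by 0.64 and -0.20. The 4 other genes of aldehyde clearance all went opposite ways: Glo1, the glyoxalase of methylglyoxal, differed by 0.05 and -0.03, Adh5 by 0.07 and -0.19, and Esd by -0.14 and 0.99.

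Of 4 polyol and fructose genes tested, 2 were lower in large tumours of both mice, 0 were higher and 2 went opposite ways. The polyol pathway continues from Akr1b3 through Sord, the sorbitol dehydrogenase, which differed by -0.41 (mouse 1) and 0.07 (mouse 2). Khk, the fructokinase, differed by -0.68 and 0.15 between sizes and lay 1.80 higher in mouse 2 than in mouse 1 (limma adjusted p = 0.0277 with the size block, higher in 2 of 2 sizes). Among 8 suppliers of NADPH, 3 had lower values in large tumours of both mice and 2 had higher ones. Taldo1 of the pentose phosphate pathway differed by 0.08 and 0.25, Pgls by -0.05 and 1.02, and the isocitrate dehydrogenase gene Idh1 by -0.01 and -1.01. NRF2 targets, among which several aldo-keto reductases are counted, were lower in both mice in 6 of 14 and higher in 4. Hmox1, heme oxygenase, differed by -0.62 in mouse 1 and by a bound of -0.91 in mouse 2, where the large pool was not detected. The glutathione transferase gene Gsta4 differed by 0.19 and 1.47, and the peroxiredoxin gene Prdx1, the brightest of the list, by 0.13 and 0.08. Abcc2, an export pump for conjugates, lay 2.27 higher in mouse 2 than in mouse 1 (limma adjusted p = 0.00669 with the size block).

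Among steroid and sterol genes, 7 of 20 were lower and 4 higher in large tumours in both mice. Cyp11a1 encodes the enzyme that cuts the side chain of cholesterol and releases the aldehyde that Akr1b7 reduces in the adrenal cortex. Its normalized log2 intensity was 9.80 and 8.92 in large pools, against 8.53 and 7.14 in small pools, a difference of 1.27 (mouse 1) and 1.78 (mouse 2), opposite in sign to Akr1b7 in both. It did not pass limma (adjusted p = 0.589, or 0.0662 when the mouse was a block). Abcg8, a subunit of a sterol exporter that LXR induces, differed by -0.90 and -2.08, and its partner Abcg5 by -1.03 and -1.16. Neither passed limma: the adjusted p of Abcg8 was 0.622, or 0.101 when the mouse was a block, and that of Abcg5 was 0.588, or 0.197. Slc51a, a basolateral bile acid carrier and the brightest of the list, differed by -1.05 (mouse 1) and 0.01 (mouse 2). Of the receptor genes, Nr5a2 (LRH-1) differed by -0.42 and -0.47, Nr1h4 (FXR) by -0.96 and 0.09, and Nr1h3 (LXR alpha) by -0.24 and 0.40. In the mouse comparison 5 genes of the list passed limma with the size block and 0 without it. With that block 125 of all 13902 tested genes passed, and 7 of the 78 genes of the 8 lists together. As mouse 2 minus mouse 1, the 5 were Nr1i3 (2.42, not detected in either pool of mouse 1), Hsd11b1 (-1.68), Fgf15, Slc51a (-1.93) and Slc51b (-2.49). Among 5 prostaglandin genes, 2 had lower values in large tumours of both mice and 1 had higher ones. The prostaglandin uptake carrier Slco2a1 differed by -0.41 and -0.91, and the exporter gene Abcc4 by 0.06 and 1.12. Ptgs2 and the prostaglandin F receptor gene Ptgfr did not pass the filter.

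**Figure D4:**
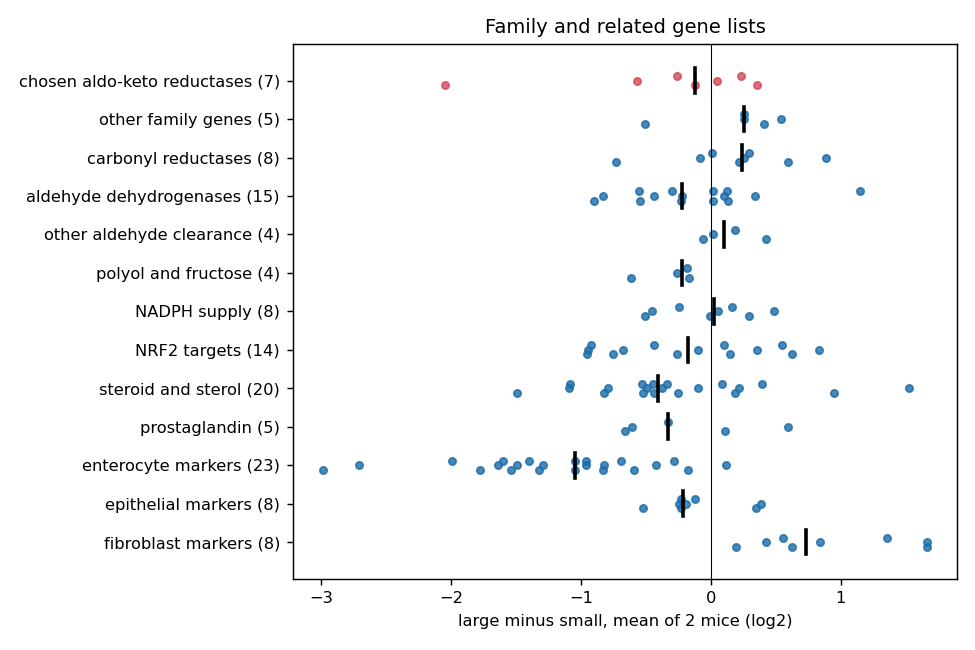
Log2 difference of large minus small tumours, as the mean of the 2 mice, for each tested gene (points) of the chosen aldo-keto reductases and of related and marker gene lists, with the number tested in brackets and the median as a black bar. The enterocyte markers have the lowest median, -1.05, and Akr1b7 is the lowest red point.

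Enterocyte markers were lower in large tumours beside Akr1b7, and their part in its difference was not tested. In both animals 20 of the 23 tested were lower and 0 higher, at medians of -1.21 (mouse 1) and -1.31 (mouse 2). Passing limma were 4 when the mouse was a block, all lower, and 0 otherwise. At an unadjusted p under 0.05 there were 7 without and 17 with the block. Of all 13902 tested genes, 26.7% were lower in both mice, and 38 passed limma as lower with the block. The marker lists were chosen with earlier results of these data known, so their counts are a description. The enterocyte markers had a mean normalized log2 intensity of 8.21 and 9.37 in large pools, against 9.28 and 10.69 in small pools. Fabp1 and Fabp2, fatty acid binding proteins of enterocytes, had probes that were not detected on any array. Epithelial markers had smaller differences, with a median of -0.21 over 8 genes, 6 lower and 2 higher in both mice; Krt20, a keratin of differentiated cells, differed by -0.63 and -0.41. Markers of the adrenal cortex, liver and fat were mostly at background: of 5 adrenal cortex genes and of 5 hepatocyte genes none passed the filter, and of 5 adipocyte genes 1 did (Cidec, -1.38 and -0.61). Other lists moved up: 6 of 8 fibroblast genes were higher in each mouse and 0 lower, of 7 Wnt targets 6 were higher and 0 lower, and of 5 neutrophil genes 4 were higher and 1 lower. With the mouse block 2 fibroblast and 3 neutrophil genes passed limma, all higher, and 0 Wnt targets did, and without it none did. Of all 13902 tested genes, 30.7% were higher in both mice, and 57 passed limma as higher with the mouse block. T cell genes were lower in both mice in 2 of 4, and smooth muscle genes higher in 3 of 5.

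The genes whose 4 values, each centred on its own mean, lay nearest to those of Akr1b7 were Gda (Euclidean distance of 0.32 log2 units), Aqp7 (0.32), LOC100048770 (0.38), LOC434609 (0.39) and LOC668549 (0.42), out of 3062 genes with a standard deviation of at least 0.5 over the 4 arrays. The guanine deaminase gene Gda had normalized log2 intensities of 4.91 and 5.40 in large pools and 6.61 and 7.37 in small pools. Its value in the large pool of mouse 1 was close to the lowest detected on that array (4.79). Aqp7, a channel for water and glycerol, was detected in the small pools and not in the large ones, so its differences are bounds of -1.07 in mouse 1 and -1.78 in mouse 2. With 4 arrays many genes can share a pattern, and the match is a description.

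**Figure D5:**
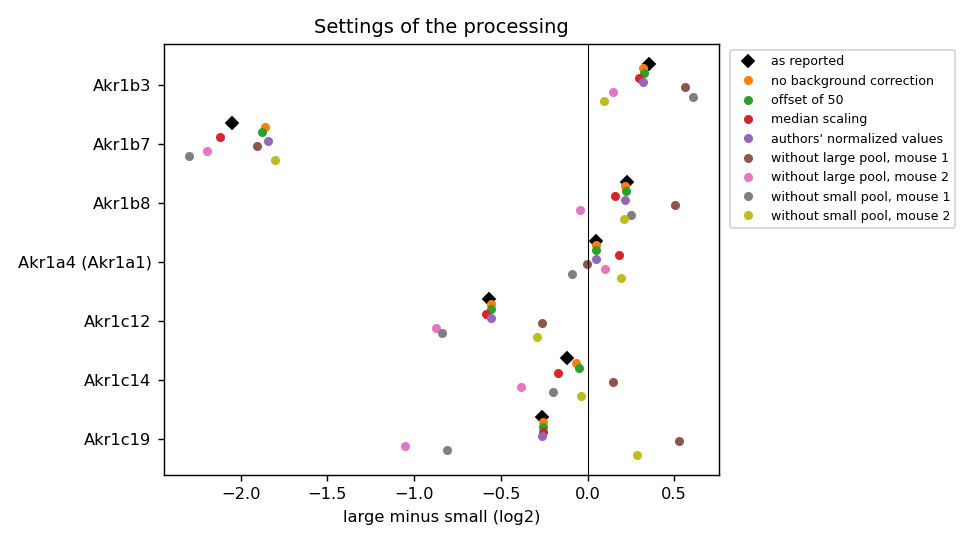
Log2 difference of large minus small tumours for the 7 tested members as reported (black diamonds) and under other settings or with 1 pool left out (coloured points). Akr1b7 stays between -2.30 and -1.80, and Akr1b8, Akr1a4, Akr1c14 and Akr1c19 have points on both sides of 0.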

How the data were processed

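RNA of 4 tumour pools was measured on Illumina bead arrays. The deposited scanner table gives, per probe, a linear bead intensity, its standard error, a whole-number count of beads and a detection p-value against negative controls, per the file headers, which state that the values were neither normalized nor background-subtracted (gene expression module 3.2.6). The submitters' processing notes name BeadStudio. The authors also deposited normalized intensity values for 15274 probes, made by a method the sources used here do not give; they served as an alternative.

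The neqc function of limma 3.58.1 (R 4.3.3) made log2 values from the deposited intensities: normexp correction with background inferred from detection p-values, offset 16, then quantile normalization. Tested were the 20214 probes whose detection p was below 0.05 on 2 or more arrays. Symbols were updated through RefSeq names of GRCm38.p6: of 45281 probes, 27740 had a current symbol, 8057 an updated one and 9484 the file's name. The files name no build. For each of 13902 genes, the brightest tested probe stood for the gene.

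A difference against an undetected pool is a bound, computed from the higher of the array's lowest detected log2 value and the probe's own. Epcam and the mouse comparison keep normalized values, apart from the bound given for Akr1c14 in large pools. Tests used lmFit and eBayes of limma, two-sided, with Benjamini-Hochberg adjustment over all probes. Large tumours were compared with small ones without the mouse as a block, and with it as an alternative. Per the labels, the number marks the animal that gave both pools; as a check, the difference between animals at 1 size was set against that at the other (r = 0.25 across genes). With 1 residual degree of freedom, the blocked fit rests on the spread pooled over probes. P-values rest on 2 animals. Mice were compared in the same way, with and without tumour size as a block. There each side is 1 animal and its 2 pools stand as replicates, so the p-values do not measure the spread among mice. Named were all genes of the family, the 5 genes nearest to Akr1b7, and in each metabolic list the brightest, most lowered and most raised gene, and any that passed; other list genes were chosen after their values were seen, and 1 gene that the rule names is not reported here. The members and lists were chosen with earlier results of these data known.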

Additional observations from a re-analysis of the deposited data

How the results depend on the processing

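Signal over background limits Akr1c13, not detected on any array, and Akr1c14, close to background on 3, and 2 arrays per size limit every value. Akr1b7 was lower in large tumours under every setting run here, with log2 differences of -2.30 to -1.80, -1.86 with no background correction and -1.84 with the authors' values. The number of members lower in both mice was 3 under every setting of background, normalization, filter and probe. With 1 pool left out only 1 mouse remains, and 4 to 6 members were lower in it.

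The number of probes passing limma for large against small tumours was 0 as reported, 120 with the mouse as a replicate block and 2 with median scaling, and with 1 pool left out it was 0 to 70 (70 without the large pool of mouse 1, 19 without that of mouse 2). For mouse 2 against mouse 1 it was 0 as reported, 155 with tumour size as a block and 0 to 17 with 1 pool left out (17 without the large and 11 without the small pool of mouse 1). Fits without 1 pool weigh the mice unequally and assume that the lone pool varies like the others. In these fits the size difference ran from -0.0918 to 0.19 for Akr1a4, from -0.0458 to 0.50 for Akr1b8, from -0.39 to 0.15 for Akr1c14 and from -1.05 to 0.52 for Akr1c19. That of Akr1c19 was 0.52 without the large pool of mouse 1, 0.28 without the small pool of mouse 2, -1.05 without the large pool of mouse 2 and -0.81 without the small pool of mouse 1. That of Akr1c12 ran from -0.87 to -0.26.

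With 1 pool left out, the difference between the mice ran from -0.032 to 0.21 for Akr1a4 and from -0.46 to 0.36 for Akr1b3. In the same fits it ran from -0.69 to 1.47 for Akr1b7 and from -0.0059 to 0.52 for Akr1b8. It ran from 0.28 to 0.88 for Akr1c12, from 0.19 to 0.50 for Akr1c14 and from 1.09 to 1.59 for Akr1c19. That of Akr1b7 was -0.58 without the large pool of mouse 1 and -0.69 without the small pool of mouse 2. That of Akr1c12 was 0.58 as reported, 0.28 without the large pool of mouse 1, 0.31 without the small pool of mouse 2 and 0.88 without the small pool of mouse 1. That of Akr1c14 was 0.35 as reported, 0.16 with an offset of 50, 0.18 with no background correction and 0.19 without the large pool of mouse 1. With median scaling that of Akr1b3 was 0.0767 and not -0.05. Without 1 pool, 1 mouse is left with a single size, so the difference between sizes enters that between the mice. The cause of the other changes was not tested. The blocks changed no call of a member between the mice.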

Other observations

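Probes of several genes close to the family gave no signal above background on most or all arrays. Whether these probes can detect their transcripts was not tested. Ptgs2, the inducible prostaglandin synthase, had a highest bead signal of 62.2 on its probe with the lower detection p, which was 0.143 at its lowest over the arrays. Slc2a5, the fructose transporter of enterocytes, reached 64.4, with a lowest detection p of 0.0676. Abca1, a cholesterol exporter, reached 60.0, with a lowest detection p of 0.222. Nr0b2, the receptor SHP that bile acids induce, was detected on 1 of 4 arrays, with a highest bead signal of 70.0. Star, which delivers cholesterol to mitochondria for steroid synthesis, was detected on 0 of 4 arrays, with a highest bead signal of 58.1, whereas Cyp11a1, the next step, was detected on all 4.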
